A study of Mus musculus with 2 samples.

Results

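The 6 genes of the type 17 cytokine system described here were Il17a, Il17f, Il22, Il23r, Il17ra and Il17rc, taken by symbol from the 27998 gene rows of the count matrices of 2 single-cell RNA libraries. All 6 were present in both matrices, and they were followed in each cell type as counts of unique molecular identifiers (UMIs, counted RNA molecules) per 1000000 UMIs (CPM), together with the co-detection of Il17a and Il17f in single T cells. Both libraries came from dorsal skin of young male wild-type (WT) C57BL/6J mice that had healed from a circular wound 1.8 cm across. The spraying was done on days 0, 3 and 6 after wounding. The library named WT_LW received PBS, and the library named TLR9agonist_LW received ODN2395, a CpG oligonucleotide that activates Toll-like receptor 9 (TLR9), a sensor of unmethylated DNA. Tissue was taken 2 days after the scab came off, and each library pooled cells of several mice, which cannot be separated in the files. With 1 library per treatment there was no replicate, no difference between the treatments could be tested, and treatment and library cannot be told apart. Values are therefore given with exact 95% intervals that cover counting error only.

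IL-17A and IL-17F are related cytokines that form homodimers and a mixed dimer, and all of these signal through a receptor made of the IL-17RA and IL-17RC chains. The main producers in mouse skin are γδ T cells of the type 17 kind and T helper 17 cells, whereas the receptor is read by keratinocytes, fibroblasts and other resident cells. IL-22 is a cytokine of the same lymphocytes that acts on epithelium, and IL-23 receptor is the chain through which IL-23 from myeloid cells maintains these lymphocytes.

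Il17a (ENSMUSG00000025929) lies on the forward strand at chr1:20730905-20734496 and Il17f (ENSMUSG00000041872) on the reverse strand at chr1:20777146-20790617 in the GRCm38 annotation, with 42649 bases between the genes. Il22 (ENSMUSG00000074695) lies at chr10:118204942-118210047 on the forward strand. Il23r (ENSMUSG00000049093, chr6:67422932-67491855, reverse strand), Il17ra (ENSMUSG00000002897, chr6:120463247-120487559, forward strand) and Il17rc (ENSMUSG00000030281, chr6:113471427-113483140, forward strand) share chromosome 6. All 6 are annotated as protein coding.

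The promoter windows of Il17a, Il17f and Il23r are shown. Il17f and Il23r were the members among the 5 genes whose levels across cell types and T cell gates followed Il17a most closely. The windows are also shown because RORα and BATF, regulators whose genes are described further on, are known to bind elements of these types. Each RefSeq window of the GRCm38.p6 assembly runs over 300 bases, starting 250 bases before the gene start, and is written 5′ to 3′ along the gene. Capitals mark AGGTCA, a core element of nuclear receptors such as RORα, and TGANTCA, an AP-1 type site, each searched on both strands.
Il17a, chr1:20730655-20730954, forward strand: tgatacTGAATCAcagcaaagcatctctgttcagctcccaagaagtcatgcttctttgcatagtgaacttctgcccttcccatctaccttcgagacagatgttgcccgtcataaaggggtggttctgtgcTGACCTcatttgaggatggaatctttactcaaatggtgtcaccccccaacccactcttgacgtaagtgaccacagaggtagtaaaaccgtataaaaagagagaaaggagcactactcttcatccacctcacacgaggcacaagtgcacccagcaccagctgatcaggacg
Il17f, chr1:20784221-20784520, reverse strand: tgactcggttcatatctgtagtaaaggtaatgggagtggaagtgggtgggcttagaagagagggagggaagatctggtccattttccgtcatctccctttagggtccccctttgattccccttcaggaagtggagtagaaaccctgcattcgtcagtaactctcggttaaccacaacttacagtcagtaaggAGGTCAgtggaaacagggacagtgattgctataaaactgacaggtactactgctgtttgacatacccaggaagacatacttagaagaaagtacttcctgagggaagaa
Il23r, chr6:67491806-67492105, reverse strand: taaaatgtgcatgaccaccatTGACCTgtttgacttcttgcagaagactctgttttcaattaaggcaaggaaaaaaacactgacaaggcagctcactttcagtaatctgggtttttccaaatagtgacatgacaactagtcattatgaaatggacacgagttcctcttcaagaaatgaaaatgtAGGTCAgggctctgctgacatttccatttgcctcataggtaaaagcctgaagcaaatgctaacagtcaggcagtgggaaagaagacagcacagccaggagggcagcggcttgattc
The Il17a window held 1 AGGTCA, on the opposite strand as TGACCT, 120 bases before the start, and 1 TGANTCA 244 bases before it. The Il17f window held 1 AGGTCA 58 bases before the start, and this start lies inside the longer gene span given above. The Il23r window held 2, at 229 and 66 bases before the start. The windows of Il22 and Il17rc held neither sequence. Of the 32851 windows of this length, 16.3% held AGGTCA and 7.81% held TGANTCA, so that either sequence was common. A match is a description of the letters and not of a bound site.

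Of 12800 and 13751 barcodes in WT_LW and TLR9agonist_LW, 10395 and 11811 cells were used, with 85681280 and 111120573 UMIs and a median of 5519 and 6080 UMIs per cell. Among the cells used, 33 barcodes occurred in both libraries. T cells were the largest class, with 3552 cells in WT_LW and 3855 in TLR9agonist_LW. T cells were gated by marker UMIs without using any of the 6 genes. The γδT17-like gate asked for at least 2 of the γδT17 markers fixed for this gate (Cd163l1, Blk, Sox13 and others) and no Cd4, Cd40lg, Cd8a, Cd8b1 or Foxp3. It held 433 cells in WT_LW, 12.2% of T cells (11.1 to 13.3), and 1092 cells in TLR9agonist_LW, 28.3% (26.9 to 29.8). A Cd3 chain was detected in 97.7% and 98.3% of these cells and Maf in 91.2% and 86.3%. The CD4-like gate held 1398 and 1090 cells, the CD8-like gate 478 and 241, and the Treg-like gate 318 and 201. The ungated T cells, 925 and 1231, included 136 and 644 cells with a single γδT17 marker and none of the other gate genes. A further 785 and 576 met no gate, most of them for want of a gate gene and some because their gate genes clashed (Cd8b1 was detected in 9.68% and 6.08% of them and Cd4 in 8.41% and 4.69%). The remaining 4 and 11 met 2 gates.

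The median gene was lower in TLR9agonist_LW by a log2 ratio of -0.39 over all cells, -0.26 in T cells, -0.17 in the γδT17-like gate, -0.41 in keratinocytes and -0.27 in both fibroblasts and macrophages with dendritic cells. Values relative to this shift are given where it bears on a direction. Over all cells, 3 of the 6 genes (Il17a, Il17f and Il23r) were at least 2-fold higher in TLR9agonist_LW and none was at least 2-fold lower, where 3.8% of the 15442 genes with at least 50 UMIs were as much higher and 11.7% as much lower. In the γδT17-like gate, Il17a, Il17f and Il22 were at least 2-fold higher and Il17rc was at least 2-fold lower, where 4.89% of 7941 genes were as much higher and 16.3% as much lower.

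Il17a encodes the founding cytokine of the family. In T cells it stood at 316 CPM in WT_LW (5553 UMIs, interval 307 to 324) and at 4707 in TLR9agonist_LW (88244 UMIs, 4676 to 4738). This was a 14.9-fold higher level in TLR9agonist_LW (14.5 to 15.3), with a log2 ratio of 3.90 (4.16 when set against the median gene). T cells held 91.8% and 93.1% of all Il17a UMIs. Il17a and Il17f were among the leading genes of 1 of the T cell clusters. Neither gene was used for the clustering or as a naming marker, and their place in T cells is given as a description.

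Within γδT17-like cells, Il17a stood at 1241 CPM in WT_LW (1190 to 1293) and at 9327 in TLR9agonist_LW (9242 to 9413), a 7.52-fold higher level (7.21 to 7.84), with a log2 ratio of 2.91. It was detected in 58.7% and 87.4% of these cells, or in 45.0% and 77.6% after cells with at least 1500 UMIs were thinned to 1500. Il17a was thus detected in a 1.49-fold larger share of the gate's cells in TLR9agonist_LW, and the cells with Il17a held 5.46-fold more Il17a UMIs each, where the median cell of the gate had 4034 and 4410.5 UMIs in all. Apart from the level within the gate, the gate itself took a 2.32-fold larger share of T cells.

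CD4-like cells, the gate that would hold T helper 17 cells, stood at 323 CPM of Il17a in WT_LW (311 to 336) and at 901 in TLR9agonist_LW (878 to 925), 2.79-fold higher (2.66 to 2.92). Their share of T cells was smaller in TLR9agonist_LW, by a factor of 0.718. In WT_LW they held 42.8% of all Il17a UMIs and the γδT17-like cells 37.3%, and in TLR9agonist_LW these shares were 5.92% and 48.7%. CD8-like cells stood at 40.7 and 544 CPM and Treg-like cells at 45.8 and 343. The γδT17-like gate was thus the highest and the CD4-like gate the next in both libraries, and the intervals of CD8-like and Treg-like cells overlapped in WT_LW but not in TLR9agonist_LW.

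The ungated T cells held a further 8.88% of Il17a UMIs in WT_LW and 37.3% in TLR9agonist_LW. Cells with a single γδT17 marker held 4.50% and 29.7% of all Il17a UMIs. They stood at 571 CPM of Il17a in WT_LW (505 to 643) and at 10318 in TLR9agonist_LW (10198 to 10440). In TLR9agonist_LW their level was above that of the γδT17-like gate, with intervals that did not overlap, and in WT_LW it was below. The remaining T cells that met no gate stood at 81.6 and 2901 CPM.

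Outside T cells, Il17a ranged over 11 cell types from 0 to 8.85 CPM in WT_LW (median 3.32) and from 18.3 in keratinocytes to 229 in lymphatic endothelial cells in TLR9agonist_LW (median 48.9). The share of cells with an Il17a UMI in these cell types was at most 4.12% in WT_LW. In TLR9agonist_LW it ran from 16.6% to 57.1%, or from 0 to 13.8% after thinning. The 57.1% was that of only 14 sebaceous gland cells, which were deep, with a median of 22862.5 UMIs. Free RNA can give single UMIs in cells that do not make a transcript, and its part in these shares was not tested. The T cell shares are given beside those of the other cell types. In TLR9agonist_LW the Treg-like share of 19.4% and the CD8-like share of 29.5%, 7.61% and 11.3% after thinning, lay within the range of the other cell types, while the levels of 343 and 544 CPM lay above that range. In WT_LW these shares were 7.86% and 4.81%, or 2.64% and 2.60% after thinning, above every share of the other cell types at the same depth (at most 1.099% after thinning). The CD4-like share of 43.0% in TLR9agonist_LW was within the unthinned range and, at 25.1%, above it after thinning.

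**Figure D1:**
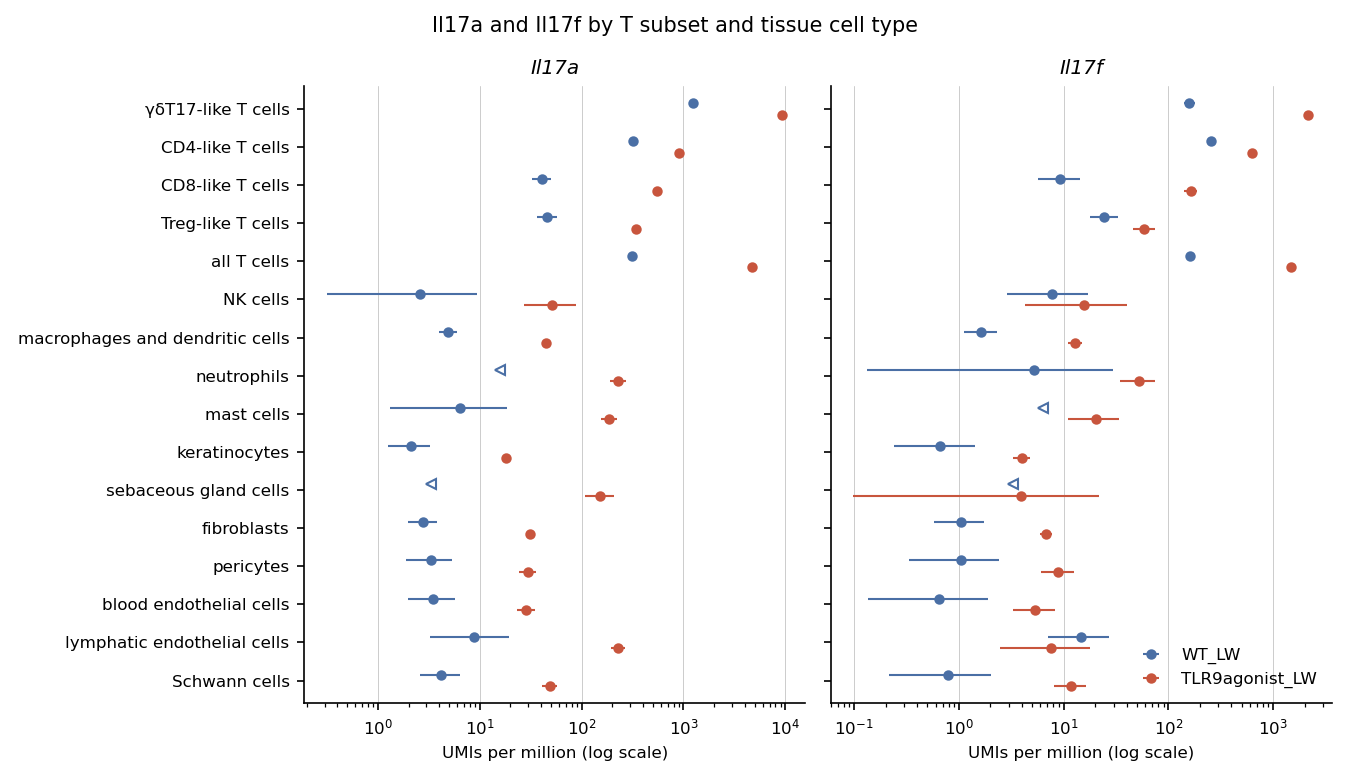
Il17a and Il17f in each cell type and T cell gate, as CPM on a log axis, with 1 point per library and exact 95% Poisson intervals (counting error only). Open triangles mark classes with 0 UMIs, drawn at the level of 3 UMIs. The γδT17-like points of Il17a stand at 1241 and 9327, against 18.3 to 229 for the other cell types in TLR9agonist_LW.

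The distribution over single cells differed in the same direction as the level. The median γδT17-like cell held 1 Il17a UMI in WT_LW (quartiles 0 and 6, highest 66) and 15 in TLR9agonist_LW (quartiles 2 and 54, highest 534). No Il17a UMI was found in 41.3% of γδT17-like cells in WT_LW and in 12.6% in TLR9agonist_LW. Cells with 10 to 99 UMIs made up 17.1% and 44.7%, and cells with 100 or more 0% and 13.0%. The cells with 100 or more UMIs held 55.8% of the gate's Il17a UMIs in TLR9agonist_LW, and the top 10% of cells held 54.7% in WT_LW and 48.0% in TLR9agonist_LW, so that the shift was seen at the median and quartiles while a minority of cells carried much of the total. Of the CD4-like cells, 80.0% and 57.0% held no Il17a UMI, and the top 10% of cells held 91.4% and 83.5% of the gate's Il17a UMIs, so that most of its Il17a UMIs lay in a small fraction of its cells in both libraries.

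Cells with at least 10 Il17a UMIs numbered 179 in WT_LW and 1262 in TLR9agonist_LW, of which 170 and 1172 were T cells. In WT_LW 74 of them were γδT17-like and 70 CD4-like. In TLR9agonist_LW 630 were γδT17-like, 339 were T cells with a single γδT17 marker and 109 were CD4-like. Fibroblasts and keratinocytes had no such cell in WT_LW and 2 each in TLR9agonist_LW, among 2173 and 1141 cells, so that the Il17a of these cell types consisted mainly of low counts. Outside T cells, the share of such cells in TLR9agonist_LW was largest in sebaceous gland cells (1 of 14) and lymphatic endothelial cells (2 of 57). It was 3 of 226 in neutrophils, and NK cells and blood endothelial cells had none.

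**Figure D2:**
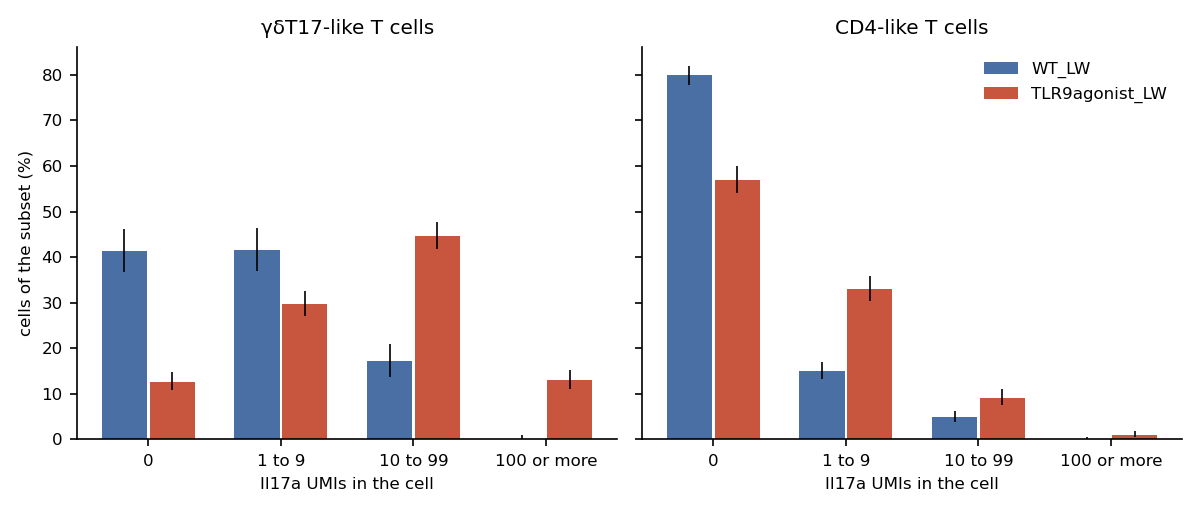
Share of γδT17-like and CD4-like T cells, in percent, with 0, 1 to 9, 10 to 99 and 100 or more Il17a UMIs in each library, with exact 95% binomial intervals. In the γδT17-like gate the share with 100 or more was 0% in WT_LW and 13.0% in TLR9agonist_LW.

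Il17f encodes the closest relative of Il17a. In T cells it stood at 160 CPM in WT_LW (154 to 166) and at 1477 in TLR9agonist_LW (1459 to 1494), a 9.24-fold higher level (8.89 to 9.61). In the γδT17-like gate it stood at 159 in WT_LW (288 UMIs, 141 to 178) and at 2168 in TLR9agonist_LW (10740 UMIs, 2127 to 2209), 13.7-fold higher (12.2 to 15.4), with a log2 ratio of 3.77. Detection in the gate was 13.4% and 44.0%, or 10.3% and 34.6% after thinning, against at most 2.08% and 8.76% in the cell types other than T cells. In CD4-like cells Il17f stood at 257 (246 to 268) and 631 (611 to 651), 2.46-fold higher in TLR9agonist_LW.

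The order of the gates for Il17f differed between the libraries. CD4-like cells were above γδT17-like cells in WT_LW, with intervals that did not overlap, and below them in TLR9agonist_LW. CD4-like cells accordingly held 68.8% of all Il17f UMIs in WT_LW and 13.3% in TLR9agonist_LW, while γδT17-like cells held 9.63% and 36.4%. Ungated T cells held 13.3% and 43.2%, and those with a single γδT17 marker stood at 264 CPM in WT_LW (220 to 315) and 3446 in TLR9agonist_LW (3377 to 3517), above the γδT17-like gate in both. CD8-like cells stood at 9.30 and 163 CPM and Treg-like cells at 24.6 and 58.7, both far below the first pair of gates. The 11 other cell types ranged from 0 to 14.7 in WT_LW and from 3.90 to 51.9 in TLR9agonist_LW.

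The balance of the cytokines differed between the gates. For each Il17f UMI, γδT17-like cells held 7.82 Il17a UMIs in WT_LW (6.92 to 8.87) and 4.30 in TLR9agonist_LW (4.21 to 4.39). CD4-like cells held 1.26 (1.19 to 1.33) and 1.43 (1.37 to 1.49). The γδT17-like ratio was thus several times the CD4-like ratio in both libraries, and it was lower in TLR9agonist_LW, where Il17f differed from WT_LW by a larger factor than Il17a. Among the cell types other than T cells with at least 14 Il17f UMIs in TLR9agonist_LW, the ratio ran from 3.33 in pericytes (2.24 to 5.08) to 9.29 in mast cells (5.34 to 17.5). The intervals of keratinocytes (3.70 to 5.69), fibroblasts (3.93 to 5.35), blood endothelial cells (3.27 to 9.03), neutrophils (2.91 to 6.80) and Schwann cells (2.87 to 6.22) held the γδT17-like ratio. The intervals of neutrophils, Schwann cells and pericytes held both this ratio and that of all T cells (3.19). The interval of macrophages and dendritic cells (2.89 to 4.10) held only the ratio of all T cells, and that of mast cells held neither. All of these intervals lay above the CD4-like ratio. Below 14 Il17f UMIs were lymphatic endothelial cells (151 Il17a and 5 Il17f UMIs), sebaceous gland cells (39 and 1) and NK cells (13 and 4). In WT_LW the ratio was 3.0 in macrophages and dendritic cells (1.99 to 4.63) and 2.67 in fibroblasts (1.44 to 5.197). In lymphatic endothelial cells of WT_LW, with 10 Il17f UMIs, it was 0.6 (0.179 to 1.82). These WT_LW intervals all lay below the γδT17-like ratio of that library.

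Il17a and Il17f were found in the same single cells. Among 433 γδT17-like cells of WT_LW, 52 held both, 202 held Il17a only, 6 held Il17f only and 173 held neither. Among 1092 of TLR9agonist_LW, 439 held both, 515 held Il17a only, 42 held Il17f only and 96 held neither. The share with both was thus 12.0% and 40.2%, or 7.62% and 30.5% after thinning.

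Il17f of the γδT17-like gate was mainly found in cells that also held Il17a. Of the cells with Il17f, 89.7% also held Il17a in WT_LW (78.8 to 96.1) and 91.3% in TLR9agonist_LW (88.4 to 93.6). Of the cells without Il17f, 53.9% and 84.3% held Il17a. The reverse shares were lower, since 20.5% and 46.0% of the cells with Il17a also held Il17f. After thinning, 73.8% and 88.2% of cells with Il17f held Il17a. In TLR9agonist_LW Il17f was found in 30.4% of cells with no Il17a UMI, 30.6% of those with 1 to 9, 47.7% of those with 10 to 99 and 75.4% of those with 100 or more. In WT_LW it was found in 3.35% of cells with no Il17a UMI, 27 of 180 cells with 1 to 9 and 33.8% of those with 10 to 99. Detection of Il17f was thus higher in cells with many Il17a UMIs, but in TLR9agonist_LW it did not differ between cells with none and those with 1 to 9. Cells with both genes were also deeper than cells with neither, with medians of 4524.5 and 3556 UMIs in WT_LW and 4575 and 3820.5 in TLR9agonist_LW, and the part of depth in this relation was not tested beyond the thinned shares.

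CD4-like cells showed a more even overlap. In WT_LW 181 held both, 99 held Il17a only, 101 held Il17f only and 1017 held neither, and in TLR9agonist_LW the numbers were 259, 210, 120 and 501. The share with both was 13.0% and 23.8%, or 5.66% and 12.9% after thinning. Of the cells with Il17f, 64.2% and 68.3% held Il17a, against 8.87% and 29.5% of those without Il17f. Of the cells with Il17a, 64.6% and 55.2% held Il17f, a larger share than in the γδT17-like gate in both libraries. CD8-like and Treg-like cells with both numbered 1 each in WT_LW and 13 and 12 in TLR9agonist_LW.

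**Figure D3:**
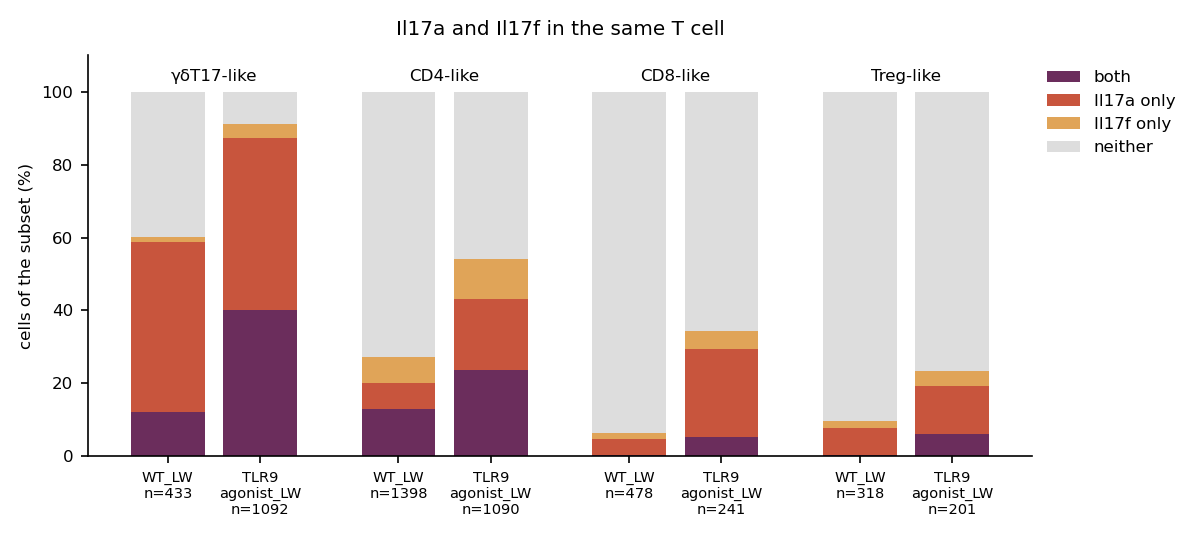
Co-detection of Il17a and Il17f, as the percent of cells of each T cell gate and library with both, with Il17a only, with Il17f only and with neither. Cells with both made up 12.0% and 40.2% of the γδT17-like gate and 13.0% and 23.8% of the CD4-like gate in WT_LW and TLR9agonist_LW.

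Il22 encodes a cytokine that acts on epithelial cells through its own receptor. In T cells it stood at 81.8 CPM in WT_LW (77.6 to 86.1) and at 171 in TLR9agonist_LW (165 to 177), 2.09-fold higher (1.96 to 2.23). CD4-like cells stood at 162 (153 to 171) and 270 (258 to 284), 1.67-fold higher, and held 86.3% and 48.8% of all Il22 UMIs. In the γδT17-like gate it stood at 2.75 in WT_LW (5 UMIs, 0.894 to 6.43) and at 96.9 in TLR9agonist_LW (480 UMIs, 88.4 to 106), a ratio of 35.2 whose interval ran from 14.97 to 109 because of the 5 UMIs.

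Il22 was thus highest in the CD4-like gate of the named gates in both libraries, unlike Il17a. Ungated T cells other than those with a γδT17 marker stood at 25.5 and 320 CPM, above the CD4-like gate in TLR9agonist_LW. Detection was low in the γδT17-like gate, at 1.15% and 5.40% of its cells. The highest share in a cell type other than T cells was 3.12%, in the 64 neutrophils of WT_LW, and 14.3%, in the 14 sebaceous gland cells of TLR9agonist_LW. After thinning it was 0.548% in TLR9agonist_LW, against 3.34% in the γδT17-like gate. Il17a was found in 5 of 5 γδT17-like cells with Il22 in WT_LW and 56 of 59 in TLR9agonist_LW, against 58.2% and 86.9% of those without Il22. Of CD4-like cells with Il22, 58.3% in WT_LW (48.5 to 67.7) and 59.0% in TLR9agonist_LW (50.5 to 67.1) held Il17a, against 16.8% and 40.6% of those without.

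Il23r encodes the specific chain of the IL-23 receptor. In T cells it stood at 17.1 CPM in WT_LW (15.2 to 19.1) and at 54.0 in TLR9agonist_LW (50.7 to 57.4), 3.16-fold higher, and T cells held 90.1% and 89.2% of its UMIs. Within the γδT17-like gate it stood at 68.3 (56.8 to 81.4) and 103 (94.0 to 112), 1.504-fold higher (1.23 to 1.85). The ratio was larger over all T cells than inside the gate, whose share of T cells was also larger in TLR9agonist_LW.

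CD4-like cells stood at 15.1 and 27.6 CPM of Il23r, Treg-like cells at 3.91 and 24.7, and CD8-like cells at 2.21 and 7.98. The γδT17-like gate was the highest in both libraries, and in TLR9agonist_LW the intervals of the CD4-like and Treg-like gates overlapped. Detection in the γδT17-like gate was 23.6% and 33.7%, or 8.60% and 15.04% after thinning. Il17a was found in 57.8% of γδT17-like cells with Il23r and 58.9% of those without in WT_LW, and in 87.8% and 87.2% in TLR9agonist_LW, so that within the gate detection of Il23r did not separate cells with and without Il17a. The median cell of the gate held no Il23r UMI in either library, and a cell without a UMI may still express it.

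Il17ra encodes the receptor chain shared by several IL-17 cytokines and is known for broad expression. It was detected in every cell type of both libraries. Mast cells were highest, at 72.6 CPM in WT_LW (50.2 to 101) and 114 in TLR9agonist_LW (90.1 to 142). T cells stood at 66.2 (62.5 to 70.2) and 46.9 (43.9 to 50.1), with the γδT17-like gate at 62.2 and 45.0, NK cells at 69.0 and 43.5, neutrophils at 57.9 and 57.3, and macrophages and dendritic cells at 56.3 (53.0 to 59.7) and 38.7 (35.5 to 42.2). The intervals of these leukocytes overlapped in WT_LW except between T cells and macrophages with dendritic cells, and all lay above keratinocytes, fibroblasts, Schwann cells and blood endothelial cells. T cells and macrophages with dendritic cells together held most Il17ra UMIs in WT_LW, with 35.7% and 33.9%, and 27.9% and 16.4% in TLR9agonist_LW.

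Keratinocytes stood at 11.7 CPM of Il17ra in WT_LW (9.55 to 14.1) and 14.0 in TLR9agonist_LW (12.6 to 15.5), a log2 ratio of 0.26 whose interval of -0.05 to 0.59 included 0. Fibroblasts stood at 14.4 (12.5 to 16.5) and 18.1 (16.6 to 19.7), a log2 ratio of 0.33 that was 0.055 after thinning. Pericytes, the mural cells of small vessels, stood at 43.6 (37.9 to 49.96) and 89.1 (79.7 to 99.3), 2.04-fold higher in TLR9agonist_LW. In macrophages and dendritic cells the log2 ratio was -0.54 (-0.27 against the median gene), and in T cells it was -0.50. The sign of the ratio was therefore not shared by all cell types.

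Il17rc encodes the partner chain. It was high in epithelium, with 89.5 CPM in keratinocytes of WT_LW (83.5 to 95.9) and 60.0 in TLR9agonist_LW (57.1 to 63.0), and with 109 and 62.4 in the 75 and 14 sebaceous gland cells. Fibroblasts stood at 30.4 (27.6 to 33.4) and 40.7 (38.5 to 43.0), Schwann cells at 32.8 and 25.5, pericytes at 24.9 and 16.2 and blood endothelial cells at 20.03 and 15.9. T cells stood at 9.27 and 6.61 and macrophages with dendritic cells at 1.83 and 3.30. Epithelium thus came before leukocytes, the opposite of their order for Il17ra. In the γδT17-like gate, where Il17rc was past 2-fold lower, it rested on 30 and 35 UMIs, at 16.5 CPM in WT_LW (11.1 to 23.6) and 7.06 in TLR9agonist_LW (4.92 to 9.82). Keratinocytes held 37.0% and 44.6% of Il17rc UMIs and fibroblasts 19.9% and 34.1%.

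In keratinocytes the log2 ratio of Il17rc was -0.58 (-0.70 to -0.45), or -0.17 relative to the median gene of these cells, so that the larger part of this log2 difference was also seen in the median gene. Detection was 57.0% and 64.9% of keratinocytes, the higher share being in the deeper library (medians of 14794.5 and 23218 UMIs per keratinocyte), and 14.0% and 9.04% after thinning. In fibroblasts the log2 ratio was 0.42, or 0.69 relative to the median gene. Between keratinocyte sub-clusters, Il17rc was higher in differentiated interfollicular cells, at 103 and 72.5 CPM, and in upper hair follicle cells, at 107 and 71.3, than in basal interfollicular cells, at 54.7 and 39.5, and bulge hair follicle cells, at 34.7 and 31.7. The first 3 of these sub-clusters were lower in TLR9agonist_LW. In the bulge cells, with 24 and 34 UMIs, the log2 ratio of -0.13 had an interval of -0.92 to 0.69, which included 0. Cycling keratinocytes stood at 65.5 and 47.4, and the unnamed sub-cluster, with 212 and 490 cells, at 111 and 64.3. Relative to the median gene of each sub-cluster, the log2 ratio was -0.36 in differentiated, -0.44 in upper hair follicle and -0.41 in basal cells. It was -0.12 in bulge, -0.35 in cycling and -0.48 in unnamed cells. These medians rested on 1048 to 5344 genes, against 8010 for all keratinocytes.

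Detection of both receptor chains in the same cell depended strongly on depth. Of keratinocytes, 65 of 486 in WT_LW (13.4%) and 209 of 1141 in TLR9agonist_LW (18.3%) held UMIs of both. Of keratinocytes with Il17ra, 77.4% and 67.4% also held Il17rc, against 57.0% and 64.9% of all keratinocytes. The share with both was 9.37% and 6.81% in fibroblasts, 1.32% and 0.62% in T cells and 0.76% and 1.38% in macrophages and dendritic cells. After thinning, the share with both was 0.45% and 0.439% in keratinocytes, 0% and 0.046% in fibroblasts and 0.0907% and 0.0534% in T cells, each resting on at most 5 cells, so that no order of the cell types is read from it.

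**Figure D4:**
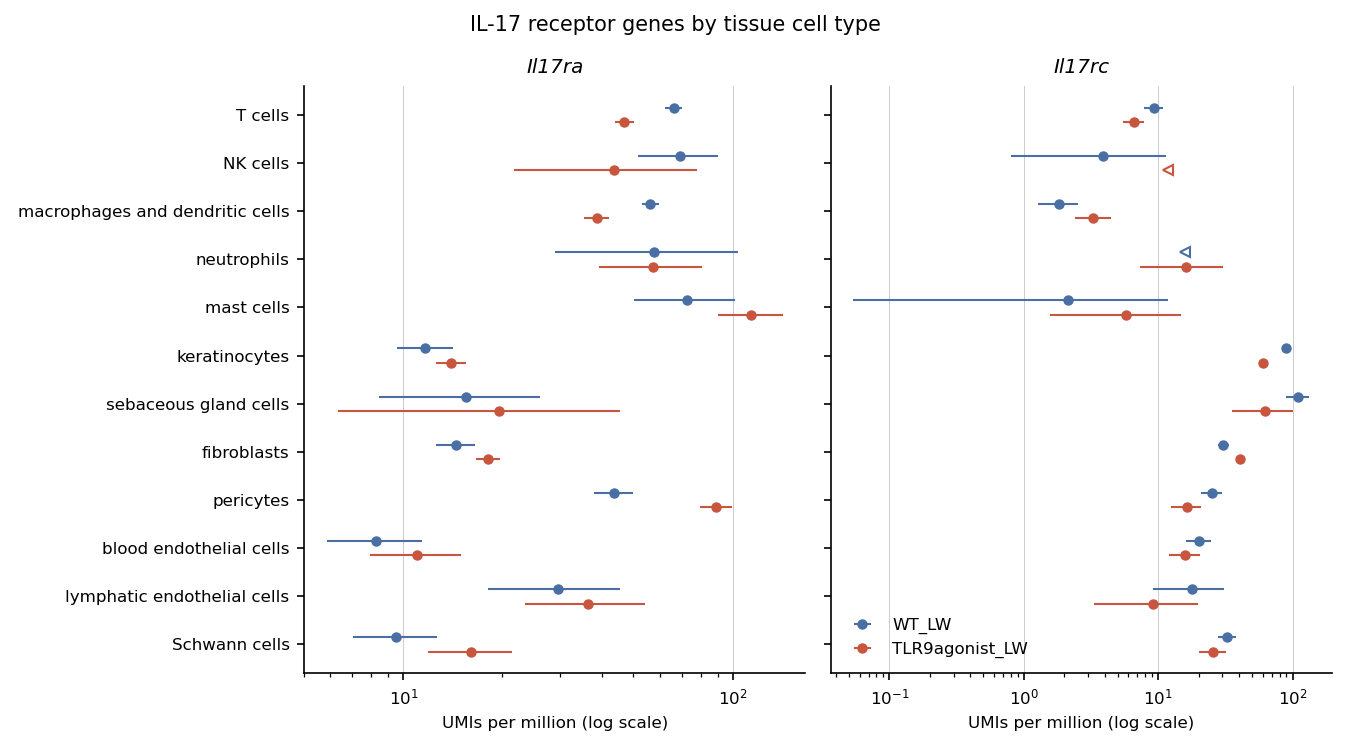
Il17ra and Il17rc in each cell type and library, as CPM on a log axis with exact 95% Poisson intervals (counting error only). Open triangles mark classes with 0 UMIs, drawn at the level of 3 UMIs. Il17rc stands at 89.5 and 60.0 in keratinocytes and at 1.83 and 3.30 in macrophages and dendritic cells, and Il17ra at 11.7 and 14.0 and at 56.3 and 38.7 in the same classes.

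Of the cytokines that drive IL-17 production, 8 of 9 had at least 50 UMIs in macrophages and dendritic cells, and 2 were at least 2-fold higher in TLR9agonist_LW and 1 at least 2-fold lower, where 3.37% of 11210 genes were as much higher and 4.0% as much lower. Il1b, a cytokine that stimulates γδ T cells, stood at 1975 and 4331 CPM, a log2 ratio of 1.13. Il6 stood at 5.64 and 29.9, a log2 ratio of 2.40. Il12b, the shared subunit of IL-12 and IL-23, stood at 58.1 and 29.0, a log2 ratio of -1.002. Il23a, the specific subunit of IL-23, rested on 29 and 30 UMIs, at 1.47 and 2.25 CPM, and its interval of -0.18 to 1.40 on the log2 scale included 0. The median log2 ratio of the list was 0.34, against -0.26 over all genes tested.

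Among 19 regulators and receptors of type 17 lymphocytes, all with at least 50 UMIs in the γδT17-like gate, 4 were at least 2-fold higher in TLR9agonist_LW and 1 at least 2-fold lower, where 4.89% of all genes tested in the gate were as much higher and 16.3% as much lower. Il2ra, a chain of the IL-2 receptor, stood at 342 and 959 CPM, a log2 ratio of 1.49. Stat3, the factor that transmits IL-6 and IL-23 signals, stood at 245 and 723, a log2 ratio of 1.56. Batf, an AP-1 family factor of type 17 cells, and Irf4, its partner, had log2 ratios of 2.10 and 1.87, and both were named after their values were seen. Rora, which encodes RORα, stood at 996 and 1947, a log2 ratio of 0.97. Il18r1 was the lower gene, with a log2 ratio of -1.43, and was also named after its value was seen. Maf, at 1027 and 1110, Il7r, at 982 and 976, Ccr2, at 846 and 881, and Cd44, at 814 and 880, had log2 ratios between -0.01 and 0.11. The median of the list was 0.11, against -0.33 over all genes tested.

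The list of other IL-17 and IL-22 family ligands and receptors also held Il12rb1 and Il12rb2, which belong to neither family. They encode chains of the IL-12 receptor, and Il12rb1 also serves the IL-23 receptor. Of the 12 genes of this list, 8 had at least 50 UMIs over all cells. None was at least 2-fold higher, and Il12rb1 and Il17rb were at least 2-fold lower, with log2 ratios of -1.51 and -1.46, where 3.8% of all genes tested were as much higher and 11.7% as much lower. Il10rb, a chain of the IL-22 receptor, stood at 53.9 and 34.1 CPM, and Il17re, the receptor chain for IL-17C, at 10.2 and 5.95. The list's median was -0.60, against -0.39 over all genes tested. Il22ra1, the specific chain of the IL-22 receptor, had 5 and 7 UMIs over all cells, Il25 had 2 and 1 and Il17c had 0 and 1, so that no difference in them was detectable at this depth.

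Downstream of the receptor, none of the 21 signalling genes measured in keratinocytes was past 2-fold in either direction, where 2.44% of 10868 genes were at least 2-fold higher and 17.3% at least 2-fold lower. Cebpb, a factor induced by IL-17, stood at 503 and 454 CPM, and Nfkbiz, which encodes a coactivator of IL-17 response genes, at 163 and 156. Nfkb1 had a log2 ratio of 0.51, Tnfaip3, a brake on this signalling, of 0.59 and Rela of 0.63. The median of the list was -0.27, against -0.48 over all genes tested.

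Of the response genes of epithelium, which keratinocytes are known to raise after IL-17, 18 of the 21 measured had at least 50 UMIs in keratinocytes. Of these 18, 12 were at least 2-fold higher in TLR9agonist_LW and none was as much lower. Over the 10868 genes tested in keratinocytes, 2.44% were as much higher and 17.3% as much lower. The list had a median log2 ratio of 1.79, against -0.48 over all genes tested, and was chosen with earlier results of these data known. S100a8 and S100a9, which encode the subunits of calprotectin, stood at 1549 and 8135 and at 1726 and 8617 CPM, log2 ratios of 2.39 and 2.32. Slpi, a protease inhibitor of skin, stood at 53.7 and 199, and Ccl20, the ligand of CCR6, at 39.1 and 148, log2 ratios of 1.89 and 1.92. Mmp13 stood at 43.9 and 89.7, a log2 ratio of 1.03. Of the 8 genes with the most UMIs, the remaining ones were within 2-fold, with Cxcl2 at 79.8 and 146, Cxcl1 at 85.9 and 102, and Lcn2 at 39.96 and 42.8.

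S100a8 was also higher outside keratinocytes, at 18.9 and 486 CPM in blood endothelial cells, 30.4 and 866 in T cells, and 12193 and 22588 in neutrophils, whose number was 64 in WT_LW and 226 in TLR9agonist_LW. S100a9 followed it, with 32.9 and 869 in T cells. The part of free RNA and of neutrophils in the keratinocyte values was not tested. Ccl20 levels were lower in the other cell types compared, with 0.65 and 7.54 in blood endothelial cells and 9.78 and 26.8 in T cells. The difference between the libraries was not particular to keratinocytes, where the log2 ratio of Ccl20 was 1.92. This ratio was 3.53 in blood endothelial cells, 2.86 in macrophages and dendritic cells, 2.50 in fibroblasts and 1.45 in T cells. In neutrophils, with 2 and 15 UMIs, it was 1.35 (-0.75 to 4.52). Slpi was also higher in TLR9agonist_LW in these cell types, with log2 ratios from 0.73 in neutrophils to 3.88 in blood endothelial cells.

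**Figure D5:**
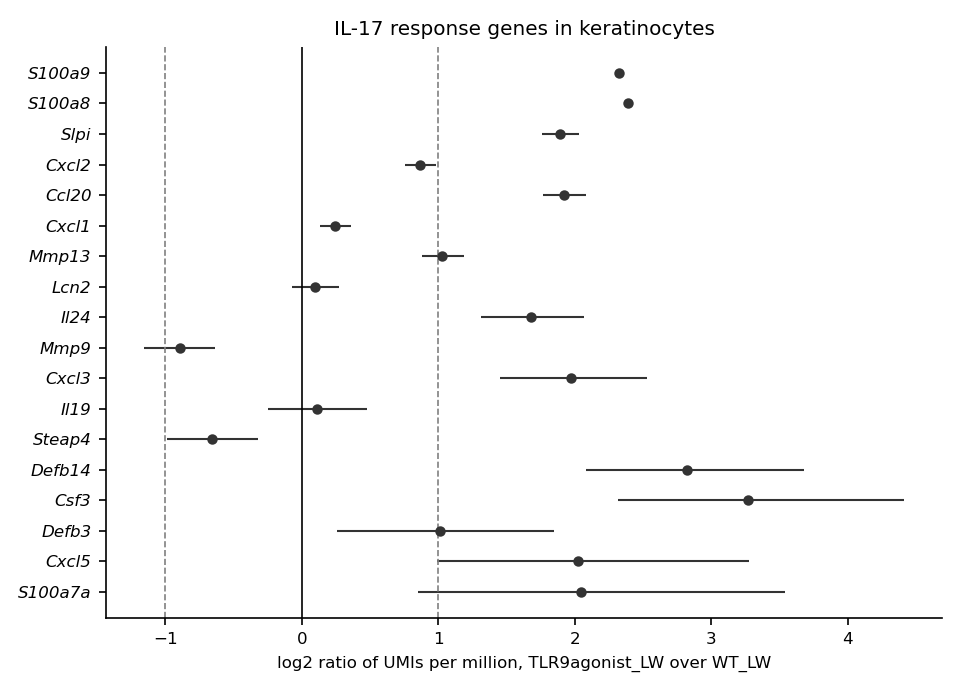
Log2 ratio of TLR9agonist_LW to WT_LW in keratinocytes for the 18 IL-17 response genes with at least 50 UMIs, with exact 95% intervals (counting error only) and dashed lines at 2-fold in either direction. The list has 12 genes past 2-fold higher and none past 2-fold lower, where 2.44% of 10868 genes were as much higher and 17.3% as much lower.

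The genes whose levels followed those of Il17a most closely were found over 30 points, the 11 cell types other than T cells and the 4 T cell gates in both libraries, among 13488 genes with at least 200 UMIs. They were Il17f (Pearson's r = 0.88 on log2 levels), Blk (0.84), Il23r (0.81), Actn2 (0.78) and Cryba4 (0.77). Blk is a gate marker and is high in the γδT17-like gate by construction. For Il17ra they were Nr4a3 (0.88), Fam107b (0.85), Dock10 (0.85), Trpv2 (0.84) and Arhgdib (0.83). For Il17rc they were Bod1 (0.93), Irgq (0.85), Pls3 (0.84), Akt1s1 (0.83) and Dcbld1 (0.82). The points share libraries, depth and cell definitions, and the values describe likeness of pattern across these classes.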

How the data were processed

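Single-cell suspensions of wound skin were run on the 10x Genomics droplet system, 1 library per treatment. The count matrices deposited by the authors hold raw UMIs by gene and barcode, and were written by Cell Ranger 4.0.0 according to the matrix header. The submitters' processing notes also list Seurat, fastp and the mm9 build. Counts are of transcript ends, so levels were not compared between genes, and the number of Il17a UMIs per Il17f UMI was compared only between groups of cells, and the depth of a cell limits detection.

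Cells with at least 500 UMIs and 300 genes and at most 15% mitochondrial UMIs were kept (11443 and 13206), and predicted doublets were removed (9.16% and 10.6% of them). The cells were normalised, corrected for library by Harmony and clustered by the Leiden method (resolution 1) in scanpy 1.11.5 under Python 3.11.15. Clusters were named from at least 3 detected markers. Clusters of mixed markers (707 and 696 cells) were set aside, 687 and 634 cells stayed unnamed, and both were left out of the named classes. The members and gene lists were chosen with earlier results of these data known, and the rule for setting cells aside was chosen after the clusters were seen. γδT17-like cells held at least 2 of Cd163l1, 5830411N06Rik, Scart2, Blk, Sox13, Etv5 and Kcnk1, without Cd4, Cd40lg, Cd8a, Cd8b1 or Foxp3. Treg-like cells held Foxp3, CD8-like cells Cd8a or Cd8b1, and CD4-like cells Cd4 or Cd40lg, each without the genes of the other of these gates (Cd4 and Cd40lg were allowed in Treg-like cells and Cd40lg in CD8-like cells).

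UMIs were summed per class and library and divided by the class total. Levels carry exact Poisson intervals, ratios exact conditional intervals and shares Clopper-Pearson intervals, all at 95%. Genes with at least 50 UMIs in a class were compared, and a gene was called past 2-fold without a test. Up to 8 genes per list with the most UMIs were named, and for Il17a, Il17ra and Il17rc the 5 genes of the highest Pearson's r of log2(CPM + 1). Certain genes are not reported here. Thinning drew 1500 UMIs per cell, and cells with fewer were left out of the thinned values. The interval calculation was tested on simulated data. Gene positions came from the GENCODE annotation of GRCm38 by Ensembl identifier and promoter windows from RefSeq (GRCm38.p6), which matched 5 of the 6 genes. Labels give PBS as the control, whereas 1 part of the study's text names a control oligonucleotide.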

Additional observations from a re-analysis of the deposited data

Results flagged for a closer look

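Cells outside the named classes also held the transcripts. In the cells set aside for mixed markers, TLR9agonist_LW stood at 466 CPM for Il17a, 158 for Il17f, 20.4 for Il22 and 9.07 for Il23r, against 49.3, 17.5, 3.02 and 2.42 in WT_LW. In the unnamed cells it stood at 146 for Il17a, 20.7 for Il17f and 48.2 for Il17rc, against 11.7, 4.68 and 30.8. These levels were above those of the control library, while Il22 in the unnamed cells (6.64 CPM in WT_LW and 4.24 in TLR9agonist_LW) and Il17ra in the unnamed (23.0 and 13.2) and set-aside cells (38.9 and 32.8) were lower. Both sets of cells enter the values over all cells and no comparison of a named cell type.

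The receptor chains differed in opposite directions between pericytes and myeloid cells. The log2 ratio of TLR9agonist_LW to WT_LW for Il17ra was 1.03 in pericytes and -0.54 in macrophages and dendritic cells. For Il17rc it was -0.62 in pericytes and 0.85 in macrophages and dendritic cells, the latter resting on 36 and 44 UMIs. With 1 library per treatment the difference between the cell types was not tested.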

How the results depend on the processing

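No paired analysis was possible because each group has 1 library. Of the 123 values recomputed under another setting, 81 stayed within the counting interval of the reported value and 42 moved beyond it, and none reversed. Relative to the median gene, the log2 ratio was 3.98 for Il17a over all cells, 4.16 in T cells and 3.08 in the γδT17-like gate, 3.47 for Il17f and 1.33 for Il22 in T cells, 0.67 for Il17ra in keratinocytes, -0.27 in macrophages and dendritic cells and 0.60 in fibroblasts, and -0.17 for Il17rc in keratinocytes and 0.69 in fibroblasts. With cells thinned to 1500 UMIs it was 4.02 for Il17a over all cells and 4.08 in T cells, 3.52 for Il17f in T cells and 3.39 in the γδT17-like gate, 0.94 for Il23r in that gate, 1.97 for Il22 in T cells, 0.055 for Il17ra in fibroblasts, and -0.71 for Il17rc in keratinocytes and 0.87 in fibroblasts. With equal weight per cell it was 4.02 for Il17a over all cells and 4.12 in T cells, 3.65 for Il17f and 1.97 for Il22 in T cells, 0.056 for Il17ra in fibroblasts and -0.31 for Il17rc in keratinocytes. Without Harmony the T cell ratios were 3.96 for Il17a and 3.27 for Il17f, and at resolution 2 they were 3.84 and 3.14. Asking for a single γδT17 marker gave 3.14 for Il17a in the gate and put 16.0% and 45.0% of T cells in it, while resolution 2 put 13.9% and 30.2% there and leaving out Harmony 29.9% in TLR9agonist_LW. Of γδT17-like cells with Il17f, 78.0% held Il17a in WT_LW with a single marker, and 73.8% and 88.2% after thinning. T cells held 84.2% and 83.2% of Il17a UMIs with doublets kept, 91.0% at resolution 2 in WT_LW and 93.4% under the stricter cell filter in TLR9agonist_LW. Leaving Cd40lg out of the gates, chosen after seeing the data, moved none of the values beyond its interval. Other than by construction, the cause of these shifts was not tested. Depth limits Il23r, Il22 in the γδT17-like gate of WT_LW and the receptors in rare cell types.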
